A study of Ovis aries with 32 samples.

Results

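The response of the adult sheep cerebral artery to phenylephrine (PHE), an agonist of alpha-1 adrenergic receptors (Alpha1AR), was read from 8 of the 32 arrays of the series. They were chosen by title, 4 as PHE-treated and 4 as untreated arteries of adult sheep. Segments of middle cerebral artery (MCA) had been exposed to 10 µM PHE for 30 minutes in a tissue bath and then frozen. The animals were non-pregnant adults, 2 years old by the labels and 18 to 24 months by the methods. The sources do not say whether the untreated segments spent the same time in the bath, nor whether equal replicate numbers mean 1 animal. Arteries from newborn lambs (12 hours old by the labels, 5 days by the methods), premature fetuses (96 days of gestation) and near-term fetuses (146 days by the labels, 140 by the methods), with 4 untreated and 4 PHE-treated arrays each, served for comparison.

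Every value below is the log2 of a probe's intensity divided by the 75th percentile intensity of its array, so that 0 is the 75th percentile. That percentile was 1031, 1077, 1730 and 1100 on untreated replicates 1 to 4 and 1045, 837, 927 and 890 on PHE replicates 1 to 4. Untreated replicate 3 was the brightest array, and 74.4% of its probes were well above background, against 65.0%, 65.4% and 70.6% on the other untreated arrays. On the PHE-treated arrays these shares were 69.8%, 63.8%, 64.2% and 64.5%. With 4 arrays per group, every mean below is imprecise. Untreated replicates 1 and 2 shared a slide with all 4 PHE-treated arrays, and untreated replicates 3 and 4 lay on another slide.

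The label of a cerebral artery could be checked on few markers, because most probes carry no gene symbol. Of 10 smooth muscle markers, calponin (CNN1) alone had a symbol. It read 8.99, 9.0, 7.74 and 8.75 on the untreated arrays and 8.42, 8.70, 8.92 and 8.94 on the PHE-treated arrays, far above the 75th percentile on each. Of 10 endothelial markers, 3 had a symbol, and endoglin (ENG) alone was bright enough to test, between -3.41 and -1.89 untreated and between -3.45 and -2.58 with PHE. KDR, a receptor that defines endothelium, was well above background on no adult array, and TIE1 on 1 untreated array. Smooth muscle and endothelium are thus each represented by a single tested marker, and the levels of different probes cannot be compared. In whole tissue, fewer cells of a type and less RNA per cell cannot be told apart.

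Alpha1AR couple through G proteins to the release of calcium and to protein kinase C, and in arterial smooth muscle they cause contraction. Calcium and MAP kinase signals also reach the nucleus, where they switch on immediate early genes, many of them for transcription factors, within minutes and without new protein synthesis. A second group of early genes codes for brakes on the same signals, such as phosphatases, phosphodiesterases and proteins that destabilize short-lived mRNAs, and cytokine genes often respond with them.

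PHE altered 148 of 9239 genes tested in the adult sheep (1.6%), and most of them were higher. There were 124 higher genes (1.34%) and 24 lower genes (0.26%), called where limma's adjusted p was below 0.05 and the change 1.5-fold or more. Tested were the genes whose probe stood well above background on every array of the treated or the untreated group. Among genes with a symbol, the 5 largest rises by the fitted values were those of the metallothionein MT1A, the phosphodiesterase PDE4B, the cytokine signal inhibitor SOCS3, the cytokine IL6 and the MAP kinase phosphatase DUSP5. No untreated array was well above background for IL6 or DUSP5, and 1 was for PDE4B, so that the places of these 3 genes are not measured. The bounds of IL6 and DUSP5, given below, lie under the fitted rises of MT1A, PDE4B and SOCS3. With normexp background correction the largest log2 changes of genes with a symbol were those of MT1A (7.23), NR4A1 (6.46) and BTG2 (6.21). Those of IL6, DUSP5 and PDE4B were then 4.91, 4.76 and 4.18, with PDE4B the smallest. By the fitted values 41 genes rose at least 16-fold, the median rise was 3.07 on the log2 scale and the median fall -1.36. The 4 PHE values and the 4 untreated values did not overlap in any of the 148, as in 757 genes in all (8.19%).

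Another tested probe existed for 23 of the altered genes. All 27 such probes changed in the same direction, and 24 of them passed the threshold too. Of the 148 genes, 120 carry a symbol, and 109 of these are named only through the supplementary table of the study, which lists genes that it found altered. Genes with a symbol were therefore altered more often (5.84% higher and 1.03% lower of 1748 tested) than all genes, and the gene lists below are read against both. The median log2 change was -0.05 over all genes tested and -0.02 over those with a symbol.

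The count of altered genes moved by more than 1.5 times when single arrays were left out: it was 365 without PHE replicate 2, 92 without untreated replicate 1, 80 without untreated replicate 4 and 78 without PHE replicate 3. With slide as a block, which compares the PHE-treated arrays with untreated replicates 1 and 2 alone, it was 87. Of the 57 genes past the threshold that were chosen for description by the rule for single genes, 38 passed it in each of the 8 fits without 1 array and 33 passed it with slide as a block. Where a call did not hold in such a fit, the fit is given below. Without the filter on dim probes, 11 of the 57 did not pass: EPHA2, HKR1, ICAM1, LRRC42, MAPK14, PABPN1, PELO, PLK2, RP9, SELP and ZFP36L1 (limma adjusted p up to 0.118). With untreated replicates 1 and 2 alone in the model, an alternative chosen after seeing the data, ATF3, CDKN1A, CKS2, ENO3, ERRFI1 and PTGS2 did not pass either, though they did with slide as a block. Without PHE replicate 2, 278 of the 9239 genes (3.01%) and 214 of the 1748 with a symbol (12.2%) were higher, and counts below without that array are to be read against these shares.

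**Figure D1:**
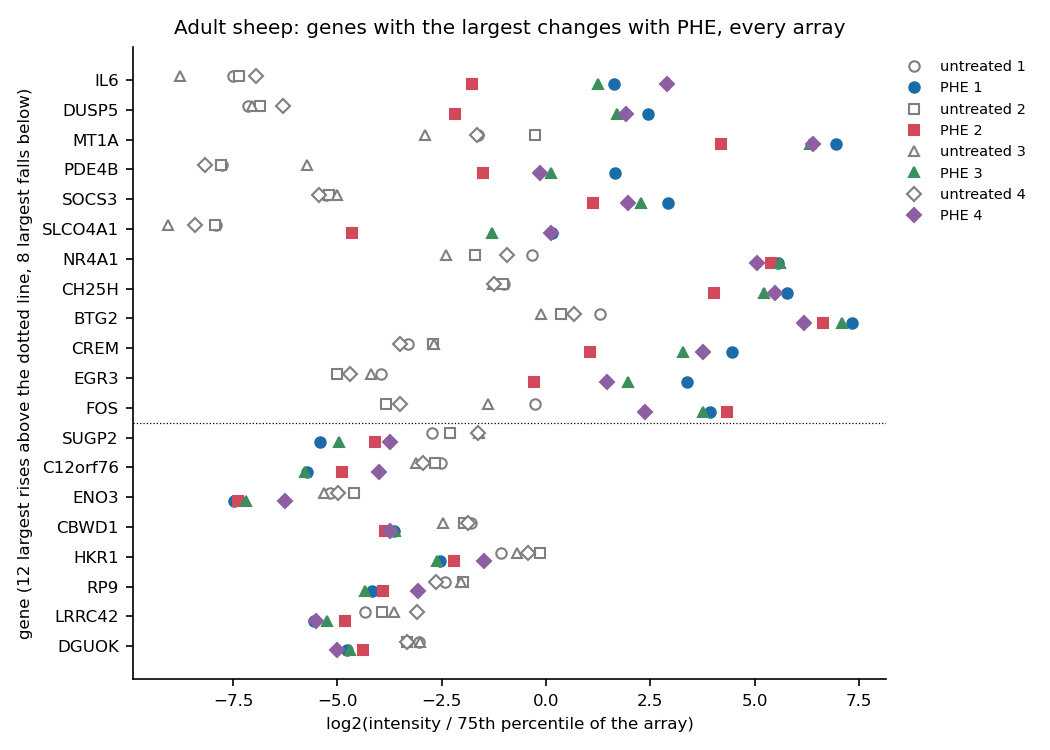
Log2 intensity relative to the array's 75th percentile on each of the 8 adult arrays, for the 12 named genes with the largest rise (above the dotted line) and the 8 with the largest fall (below it), ranked by the fitted change. At their bounds IL6 and DUSP5 would follow the fitted changes of MT1A, PDE4B and SOCS3. PDE4B had 1 untreated array well above background, and with normexp background correction its change was 4.18, behind IL6 (4.91) and DUSP5 (4.76). At its bound SLCO4A1 would not be among the 12 largest rises, nor ENO3 and LRRC42 among the 8 largest falls. Open symbols are untreated and filled symbols PHE-treated arrays, with 1 shape per replicate number, and the 4 PHE values lie apart from the 4 untreated values in every gene shown.

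Among the gene lists, which were chosen with earlier results of these data known, that of immediate early genes for transcription factors held the most rises. Of 20 tested, 14 rose (70%, against 5.84% of all genes with a symbol) and none fell, and their median log2 change was 4.07. The nuclear receptor gene NR4A1 read -0.34, -1.69, -2.39 and -0.93 on the untreated arrays and 5.56, 5.40, 5.60 and 5.07 with PHE. All 4 treated arteries reached nearly the same level, and the log2 change was 6.75 (standard error 0.40; limma adjusted p = 6.00e-05). JUNB, a subunit of the AP-1 factor that was named after its values were seen, went from 0.94, -0.28, 0.89 and 0.49 to 5.26, 5.31, 5.29 and 5.05. Its log2 change was 4.72 (standard error 0.27; limma adjusted p = 5.01e-05), and the SD was 0.12 among the 4 treated arrays against 0.57 among the untreated ones.

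FOS, the partner of JUN proteins in AP-1, read -0.26, -3.85, -1.39 and -3.51 untreated and 3.92, 4.33, 3.76 and 2.37 with PHE. Here the untreated arteries differed more (SD 1.72) than the treated ones (SD 0.85), and the log2 change was 5.85 (limma adjusted p = 0.00635). With slide as a block the adjusted p of FOS in limma was 0.0559, past no threshold. The zinc finger gene EGR1 read -1.89, -2.66, -2.48 and -2.38 untreated and 3.56, 3.70, 3.53 and 2.00 with PHE. PHE replicate 4 was the low array for EGR1, whereas for the related EGR3 it was PHE replicate 2, at -0.29 against 3.37, 1.95 and 1.47. The log2 changes of EGR1 and EGR3 were 5.55 (standard error 0.37) and 6.09 (0.66).

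MYC, a driver of growth programs, rose by 5.06, and its PHE values were 4.75, 2.50, 4.32 and 4.29. ATF3, which stress and calcium signals induce, rose by 5.04. The following were named after their values were seen: KLF4, a regulator of smooth muscle state (4.43), IER2 (4.49), the clock repressor BHLHE40 (4.39), KLF10 (3.75), SNAI1 (3.54), IER5 (3.26) and NFIL3 (2.72), all higher with PHE. The KLF10 call was lost without untreated replicate 1, 2 or 4, or without PHE replicate 1, 3 or 4 (limma adjusted p up to 0.112), and that of IER5 without untreated replicate 1, or without PHE replicate 1 or 3 (up to 0.0730). KLF10 and SNAI1 lost their calls with slide as a block. NFIL3 had a log2 change of 1.74 with normexp background correction. JUN was not past the threshold, at 0.24, -0.34, 2.01 and 1.85 untreated and 2.59, 2.48, 2.55 and 1.51 with PHE. Its untreated values split by slide, and with slide as a block JUN passed, at a log2 change of 2.33 (limma adjusted p = 0.0242). KLF2, a factor that blood flow induces in endothelium, behaved alike: its log2 change was 3.32 (limma adjusted p = 0.282) over all arrays, of which 2 untreated ones were well above background, and 5.69 (0.0104) with slide as a block. FOSL2 had a log2 change of 1.82 (limma adjusted p = 0.112) and passed without PHE replicate 2, at 2.32.

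Genes that feed back on cyclic AMP and calcium signals rose in 6 of 10 cases, with a median of 2.99 and none lower. One of the 6 is NR4A1, which is counted with the immediate early genes too. PDE4B, which breaks down cyclic AMP, read -7.77, -7.80, -5.73 and -8.18 untreated, where 1 array was well above background, and 1.65, -1.51, 0.11 and -0.15 with PHE. Its log2 change was 7.40 (standard error 0.71; limma adjusted p = 0.00103), and 4.18 with normexp background correction. CREM, whose short forms repress cyclic AMP target genes, went from -3.31, -2.70, -2.69 and -3.49 to 4.45, 1.06, 3.27 and 3.75, with PHE replicate 2 the lowest treated array. The log2 change of CREM was 6.19 (limma adjusted p = 0.00127).

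SIK1, a kinase that holds back the coactivators of CREB, had the most even treated values of these genes. They were 3.98, 3.91, 3.89 and 3.92 (SD 0.04), against -0.01, -0.43, -1.32 and 0.36 untreated. RCAN1, an inhibitor of the calcium-dependent phosphatase calcineurin, read 6.54, 4.14, 6.54 and 6.51 with PHE and between 1.61 and 2.29 untreated, so that PHE replicate 2 stood far below 3 nearly equal arrays. RGS2, which shortens signals of the G protein that Alpha1AR use, rose by 2.01, from 1.57, 1.44, 1.14 and 0.36 to 3.41, 3.18, 2.85 and 3.12. Of the members that did not pass, RGS1 had a log2 change of 2.12 (limma adjusted p = 0.0693) and passed without PHE replicate 1, PDE4D of 0.80 and CREB1 of -0.26. RCAN1 lost its call with slide as a block (limma adjusted p = 0.0551).

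MAP kinase and growth factor feedback genes included 5 that rose and 1 that fell among 17 tested, with a median of 1.03. DUSP5, a nuclear phosphatase that inactivates ERK, stood well above background on all PHE-treated arrays but on none of the untreated ones, at 2.45, -2.18, 1.69 and 1.92. PHE raised it 136-fold by a bound that lifts lower untreated values to the dimmest signal still well above background on the same array. Probes differ in the signal at which they pass as well above background, so that this bound is rough. With normexp background correction the log2 change of DUSP5 was 4.76. Again PHE replicate 2 was the lowest, by more than the spread of the other 3 arrays. The same bound was used for every fold against a group with no array well above background. IL6 and SLCO4A1 were the other higher genes with such a group, and with all 3 at their bounds the medians given here are the same, since each bound lies above them.

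TRIB1, a scaffold protein that promotes the breakdown of its partners, rose by 5.20 (limma adjusted p = 0.000374), and ERRFI1, an inhibitor of the EGF receptor, by 3.42 (0.00573). DUSP1, another MAP kinase phosphatase, read 3.28, 4.39, 3.23 and 2.79 with PHE and 1.68, 0.94, 1.65 and 1.15 untreated, and PHE replicate 2 was its highest array. SPRY2, an inhibitor of receptor tyrosine kinase signals, rose by 1.03. MAPK14, the gene of the p38-alpha kinase, fell by 0.77 on the log2 scale, from -0.11, 0.20, -0.08 and 0.14 to -0.90, -0.74, -0.64 and -0.64. DUSP4 (1.32), SPRY4 (1.31) and DUSP6 (-0.60) did not pass, and DUSP4 passed without PHE replicate 2, at 2.00. The DUSP1 call ended when untreated replicate 2 or 4, or PHE replicate 3, was left out (limma adjusted p up to 0.0738). The MAPK14 call was lost in 6 of the 8 fits, those without untreated replicate 1, 2 or 4, or without PHE replicate 1, 3 or 4 (up to 0.131), and with median scaling. DUSP1, SPRY2 and MAPK14 also lost it with slide and with replicate number as a block.

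Cytokine and chemokine genes were led by IL6, which read -7.49, -7.37, -8.77 and -6.96 on the untreated arrays and 1.64, -1.78, 1.24 and 2.90 on the PHE-treated arrays. No untreated array was well above background, and the rise was 140-fold by the bound, or 4.91 on the log2 scale with normexp background correction. IL6 was tested because it was bright with PHE, and its limma adjusted p of 0.00127 compares that signal with background. Within the treated group the values spanned more than 4 log2 units, with PHE replicate 2 lowest and PHE replicate 4 highest. This list has 16 genes with a symbol, of which 7 could be tested, and IL6 alone passed. For 5 of the 7 the untreated arrays were not all well above background, so that these genes were tested because they were bright with PHE, and the median of 3.45 (2.31 with normexp background correction) is over genes chosen in part by that. Without PHE replicate 2, 4 of the 7 passed.

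CXCL8, which attracts neutrophils, read -6.93, -6.17, -4.06 and -4.48 untreated, with 2 arrays well above background, and 2.24, -3.27, -0.89 and 3.37 with PHE. Every treated value lay above every untreated value, but the treated arteries differed so widely that the log2 change of 5.77 had a limma adjusted p of 0.0922. The monocyte attractant CCL2 read -1.83, -4.90, -0.87 and 1.67 with PHE against -5.14, -4.99, -3.46 and -6.28 untreated, where 3 arrays were well above background, and its groups overlapped through PHE replicate 2. For IL1B the PHE values were -0.73, -4.73, -3.06 and 0.47, against -5.66 to -5.20 untreated, with 2 untreated arrays well above background. Without PHE replicate 2 the log2 changes were 6.98 for CXCL8, 4.62 for CCL2 and 4.35 for IL1B, all past the threshold (limma adjusted p = 0.00997, 0.0270 and 0.0130).

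TNF was too dim to test. It was well above background on 2 untreated arrays and on PHE replicates 1, 3 and 4, where it read -1.67, -2.05 and -1.02, against -6.34 on PHE replicate 2 and -6.02 to -5.11 untreated. The other untested cytokine genes were well above background on at most 2 PHE-treated arrays.

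Cytokine receptor and JAK-STAT genes rose in 3 of 11 cases, with a median of 1.53. SOCS3, an inhibitor of signals from the receptor of IL6, had very even untreated values, -5.28, -5.19, -5.00 and -5.43, and read 2.92, 1.12, 2.28 and 1.96 with PHE. Its log2 change was 7.29 (standard error 0.34), with a limma adjusted p of 3.61e-05, and no group came near the other. IRF1, a transcription factor of interferon responses, went from -4.23, -5.12, -3.36 and -4.18 to 2.57, -1.50, 1.12 and 0.71, a change of 4.94, and SOCS2, an inhibitor of growth hormone signals, rose by 2.67. The receptor subunit genes IL6ST (0.66) and IL6R (-0.30) and the kinase gene JAK1 (0.06) did not pass, and IL6ST did without PHE replicate 2 (0.80, limma adjusted p = 0.0349). The IRF1 call was lost without untreated replicate 4, or without PHE replicate 3 (limma adjusted p up to 0.0558) and with slide as a block (0.0501).

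In the NF-kB pathway 1 of 14 genes rose (7.14%, near the 5.84% of all genes with a symbol), and the median was 1.11. The gene that rose was NFKBIZ, a nuclear partner of NF-kB needed for IL6 induction by several stimuli. It read -5.70, -5.30, -4.95 and -5.56 untreated, with 3 arrays well above background, and -1.71, -2.95, -2.14 and -1.39 with PHE (log2 change 3.33, limma adjusted p = 0.00116; 2.02 with normexp background correction). NFKBIA, the inhibitor that NF-kB itself induces, read 2.68, 2.49, 2.56 and 2.86 untreated and 4.50, 2.56, 4.16 and 3.86 with PHE. PHE replicate 2 was thus at the untreated level while the other 3 arrays lay above it, and the limma adjusted p of the log2 change of 1.12 was 0.224. The kinase gene IKBKB (1.08) and the subunit gene RELB (1.63) did not pass either. Without PHE replicate 2 these 3 passed, with log2 changes of 1.53, 1.32 and 2.28, and 7 of the 14 genes rose, where 12.2% of all genes with a symbol did.

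Adhesion and coagulation genes rose in 4 of 7 cases, with a median of 2.70. ICAM1, an endothelial anchor for leukocytes, read -6.50, -4.51, -3.66 and -6.38 untreated, with 2 arrays well above background, and 0.52, -2.69, -0.70 and 0.25 with PHE. SELP, the P-selectin of endothelium and platelets, went from -2.05, -5.79, -2.34 and -3.95, with 3 arrays well above background, to 0.96, -0.52, 0.66 and 1.70. Untreated arteries differed widely in both genes, by more than 2 log2 units. The log2 changes were 4.61 for ICAM1 (limma adjusted p = 0.0299; 2.92 with normexp background correction) and 4.23 for SELP (0.0379). PTX3, a secreted pattern recognition protein, rose by 4.16 and the anticoagulant receptor THBD by 2.70.

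The coagulation inhibitor TFPI2 read 5.09, 1.99, 4.45 and 4.47 with PHE and 0.87 to 1.89 untreated, and did not pass (limma adjusted p = 0.0914), nor did the plasminogen activators PLAT (2.17) and PLAU (1.57). TFPI2 and PLAU passed without PHE replicate 2, at 3.24 and 1.72. The ICAM1 call was lost without untreated replicate 1, 2 or 4, or without PHE replicate 1, 3 or 4 (limma adjusted p up to 0.105), and the SELP call without untreated replicate 4, or without PHE replicate 1, 3 or 4 (up to 0.129). All 4 calls were lost with slide as a block, and that of ICAM1 with replicate number as a block.

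Of 10 mRNA decay genes tested, 4 rose and 1 fell, with a median of 1.18. BTG2, which recruits the deadenylation machinery, read 1.30, 0.36, -0.12 and 0.67 untreated and 7.33, 6.64, 7.10 and 6.17 with PHE. ZFP36, which binds AU-rich elements in cytokine mRNAs, went from 2.58, 2.30, 2.41 and 2.70 to 6.45, 6.36, 6.76 and 6.01. In both genes the 4 treated arteries lay close together, and the log2 changes were 6.26 (limma adjusted p = 4.83e-05) and 3.90 (3.61e-05). Of the 5 genes that passed the t-test of the methods after adjustment, these are the 2 with a symbol.

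ZFP36L1, a relative of ZFP36, rose by 3.63 with 1 untreated array well above background (1.19 with normexp background correction), and PELO, which rescues stalled ribosomes, by 1.24. PABPN1, a nuclear protein that binds poly(A) tails, fell by 1.41 on the log2 scale, from -0.15, 0.57, 0.62 and 0.94 to -0.54, -1.40, -1.07 and -0.63. TOB1 (1.12), ZFP36L2 (1.89) and PABPC1 (0.29) did not pass, but TOB1 did without PHE replicate 4 and ZFP36L2 without untreated replicate 3. The calls of ZFP36L1, PELO and PABPN1 depended on most arrays. Each was lost in 7 of the 8 fits without 1 array: ZFP36L1 kept its call only without untreated replicate 3 (limma adjusted p otherwise up to 0.142), PELO only without PHE replicate 2 (up to 0.133), and PABPN1 only without untreated replicate 1 (up to 0.147). They were also lost with slide and with replicate number as a block, and that of PELO with median scaling (0.0574).

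Stress and growth arrest genes rose in 9 of 18 cases, with a median of 2.14 and none lower. GADD45A, which DNA damage and growth arrest induce, read -0.85, -0.25, 1.00 and -0.75 untreated and 5.89, 4.43, 5.42 and 4.74 with PHE, a log2 change of 5.33 (limma adjusted p = 0.000565). CDKN1A, the cell cycle inhibitor p21, read 4.16, 1.03, 4.10 and 3.99 with PHE and -1.90, -2.36, -1.63 and 0.02 untreated. PHE replicate 2 stood 3 log2 units below the other treated arteries for CDKN1A, and the change was 4.79 (limma adjusted p = 0.0168). PLK2, a kinase of the stress response, read -2.15, -1.93, -1.0 and -1.09 with PHE, and 1 untreated array was well above background. SGK1, a kinase that regulates ion channels, was also well above background on 1 untreated array. The log2 changes of PLK2 and SGK1 were 4.36 and 4.12, and 2.07 and 1.89 with normexp background correction.

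GADD45B rose by 3.91 and DDIT3, a transcription factor of the unfolded protein response, by 2.44. ATF4, which lies upstream of DDIT3, read 5.81, 4.95, 5.70 and 5.60 with PHE and 4.65 to 4.88 untreated, a log2 change of 0.71 that did not pass (limma adjusted p = 0.163) and did without PHE replicate 2 (0.0190). HMOX1, which breaks down heme, was well above background on 3 untreated arrays and had a log2 change of 2.70 (limma adjusted p = 0.106), past the threshold without PHE replicate 2, and TXNIP, an inhibitor of thioredoxin, of -1.05 (0.184). The CDKN1A call was lost without untreated replicate 1 or 2, or without PHE replicate 1, 3 or 4 (limma adjusted p up to 0.0660), and the PLK2 call without untreated replicate 1, 2 or 4, or without PHE replicate 1, 3 or 4 (up to 0.122) and with slide as a block.

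None of the 12 heat shock and chaperone genes passed the threshold in limma, and 9 of them were higher at an unadjusted p under 0.05, as were 5.33% of all genes and 18.2% of genes with a symbol. The median was 0.94. HSPA1A, the inducible form of HSP70, read 2.35, 1.67, 2.69 and 2.18 untreated and 5.25, 2.33, 4.00 and 6.59 with PHE. The treated arteries spanned more than 4 log2 units, with PHE replicate 2 within the untreated range and PHE replicate 4 highest. HSPH1, a partner of HSP70, read -0.69, -2.29, -0.75 and 0.91 with PHE and -4.27 to -2.56 untreated. CRYAB, a small heat shock protein of muscle, read 7.39, 6.32, 7.30 and 7.36 against 5.31 to 6.04. Without PHE replicate 2, 7 of the 12 rose, against 12.2% of all genes with a symbol, among them HSPA1A (3.06), HSPH1 (3.28) and CRYAB (1.57).

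Metallothioneins, small proteins that bind zinc and copper, rose in 2 of 3 cases, with a median of 3.63. MT1A read -1.62, -0.26, -2.90 and -1.66 untreated and 6.95, 4.19, 6.32 and 6.41 with PHE. All treated values were high, again with PHE replicate 2 lowest, and the log2 change was 7.58 (standard error 0.68; limma adjusted p = 0.000708). MT2A rose by 3.63, from 2.65, 3.36, 1.55 and 2.29 to 6.60, 5.07, 6.34 and 6.37. MT3, a form known from brain, had a log2 change of 0.38, which did not pass.

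Among 17 angiogenesis genes, 1 rose (5.88%, near the 5.84% of all genes with a symbol), and the median was 0.84. It was EPHA2, an ephrin receptor, which read -5.40, -6.32, -4.25 and -5.15 untreated, with 3 arrays well above background, and 0.53, -3.28, -0.89 and -0.29 with PHE (log2 change 4.30, limma adjusted p = 0.0275). VEGFA, the main growth factor of endothelium, read -5.82, -3.71, -5.35 and -4.68 untreated, with 3 arrays well above background, and -1.99, -3.62, -2.58 and -2.49 with PHE. Its groups were apart by little, since PHE replicate 2 lay just above untreated replicate 2, and the log2 change of 2.22 did not pass (limma adjusted p = 0.0688). Of 2 matricellular genes that stretch induces, CYR61 had a log2 change of 1.56 (limma adjusted p = 0.0543) and CTGF of -0.91. VEGFA and CYR61 passed without PHE replicate 2, at 2.54 and 1.30, and VEGFA also without untreated replicate 2. The EPHA2 call was lost without untreated replicate 1, 2 or 4, or without PHE replicate 1, 3 or 4 (limma adjusted p up to 0.0954) and with slide as a block.

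Of 3 prostanoid genes tested, PTGS2, the inducible cyclooxygenase, rose. It read -2.0, -2.25, -2.11 and -1.93 untreated and 2.79, 0.64, 2.00 and 3.49 with PHE, a log2 change of 4.31 (limma adjusted p = 0.00327). The constitutive form PTGS1 (0.17) and the receptor gene PTGER3 (0.44) did not pass.

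The list of energy and glucose metabolism genes also holds enzymes of other pathways, such as CH25H and ARG2. Of its 17 tested genes, 3 rose, these 2 and SLC2A3, and 1 fell, and the median was 0.79. CH25H, an enzyme that hydroxylates cholesterol, read -1.01, -1.02, -1.27 and -1.25 untreated and 5.78, 4.02, 5.23 and 5.50 with PHE, a log2 change of 6.27 (standard error 0.34; limma adjusted p = 4.83e-05). ARG2, the mitochondrial arginase, went from -5.05, -3.69, -5.32 and -4.63 to 1.87, -2.36, 0.69 and -0.13. PHE replicate 2 was the lowest treated array for both genes, and the change of ARG2 was 4.69 (limma adjusted p = 0.0215). SLC2A3, a glucose transporter, rose by 3.08.

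ENO3, the muscle form of enolase, read -5.18, -4.61, -5.33 and -5.00 untreated and was well above background on no PHE-treated array. It fell 1.37-fold by the bound, and its call was lost with normexp background correction (limma adjusted p = 0.879). PFKFB3, which speeds glycolysis, read -0.53, -4.07, -1.23 and -0.83 with PHE and -5.31 to -4.32 untreated, and did not pass (limma adjusted p = 0.0898). The amino acid transporter SLC7A5 (2.26) and the lactate dehydrogenase gene LDHA (0.50) did not pass either. PFKFB3 and SLC7A5 passed without PHE replicate 2, at 3.81 and 2.92. The ARG2 call was lost without untreated replicate 1, 3 or 4, or without PHE replicate 3 or 4 (limma adjusted p up to 0.0830) and with slide and with replicate number as a block.

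Of 7 contractile genes, 2 rose, and the median was 0.12. FLNA, which links actin filaments to the membrane, read -0.29, -0.91, -1.62 and -0.77 untreated and 0.43, 1.94, 1.89 and 1.64 with PHE, and RHOB, a small GTPase that acts on actin, 3.51, 3.56, 3.11 and 3.43 untreated and 5.13, 5.25, 4.86 and 4.27 with PHE. The highest array for both was PHE replicate 2, and they rose by 2.37 and 1.47. The log2 changes of CNN1 (0.12), the myosin light chain gene MYL6 (-0.21) and the myosin phosphatase subunit gene PPP1R12A (-0.11) did not pass. The FLNA call was lost without untreated replicate 2 or 4, or without PHE replicate 3 or 4 (limma adjusted p up to 0.0730), and the RHOB call without untreated replicate 1 or 4, or without PHE replicate 1 or 3 (up to 0.0637). Both were lost with slide as a block, and FLNA with replicate number as a block.

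None of 13 extracellular matrix genes passed in limma, 5 were higher at an unadjusted p under 0.05 (18.2% of all genes with a symbol were), and the median was 0.45. The crosslinking enzyme LOX had a log2 change of 1.74 (limma adjusted p = 0.101), the matrix protein TGFBI of 1.39 (0.0524) and the collagen gene COL1A2 of 1.30 (0.144). COL1A2 passed without PHE replicate 2, at 1.66, and LOX and TGFBI without untreated replicate 3. None of 4 PPAR pathway genes passed in limma at an adjusted or an unadjusted p, and the median was -0.05. Among them were the corepressor NCOR1 (-0.09), the receptor partner RXRB (-0.02) and the coregulator NRIP1 (0.58). PPARG itself was too dim to test, with 2 arrays of each group well above background. Of 9 adrenergic receptor genes, ADRB1 alone had a symbol, and it was well above background on no adult array.

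**Figure D2:**
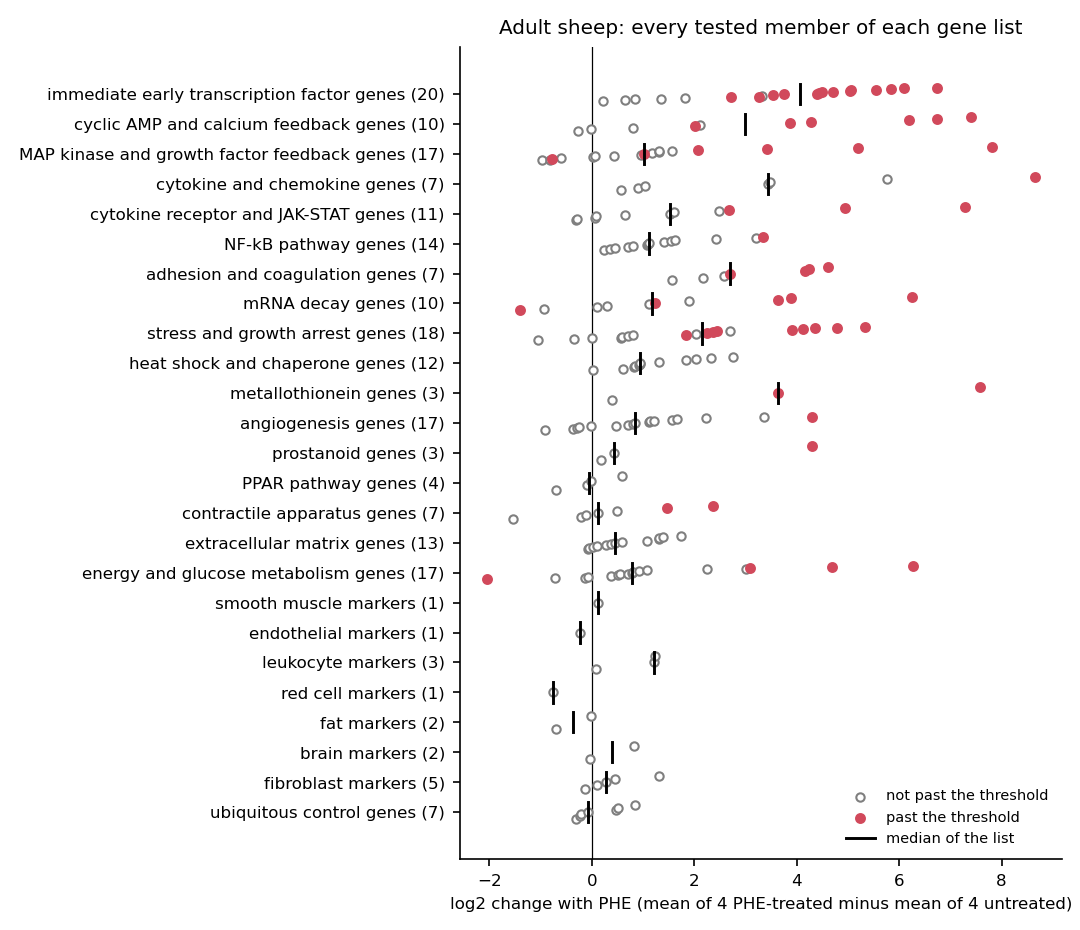
Log2 change with PHE in the adult sheep (mean of 4 treated minus mean of 4 untreated arrays) for every tested member of each gene list, with the number tested in brackets. Filled points passed the threshold and black bars mark the medians, which were 4.07 for immediate early genes and -0.07 for ubiquitous control genes.

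Genes used as controls in many tissues did not pass. Of 7 tested, none passed in limma and 1 was higher at an unadjusted p under 0.05, and their median was -0.07, or 0.36 with normexp background correction. ACTB had a log2 change of -0.23 and PPIA of -0.21.

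Markers of other cell types varied among the arteries, and none passed in limma. At an unadjusted p under 0.05, 2 leukocyte markers and 1 fibroblast marker were higher. Of 18 leukocyte markers, 9 had a symbol and 3 were tested. The summed intensity of the 9, in multiples of the 75th percentile, was 0.43, 0.79, 1.11 and 0.42 on the untreated arrays and 1.84, 0.60, 1.26 and 2.52 on the PHE-treated arrays. CD14 was the brightest gene, and CD4 was above background on no array. PHE replicate 2 lay within the untreated range and the other treated arteries above it, as was the case for NFKBIA and CCL2. CD14 had a log2 change of 1.21 (limma adjusted p = 0.298), CD68 of 1.24 (0.229) and ITGB2 of 0.09 (0.969). Without PHE replicate 2, CD68 passed, at 1.66. The part of leukocyte RNA in the changes of cytokine and NF-kB genes was not tested.

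The 5 fibroblast markers of 8 that were tested, with DCN the brightest, summed to 9.16, 13.4, 18.7 and 10.3 untreated and to 12.5, 7.98, 10.2 and 33.1 with PHE. PHE replicate 4 was the highest array here, as for IL6 and HSPA1A. The log2 changes were 1.30 for COL1A2, which passed without PHE replicate 2, 0.45 for COL1A1, 0.28 for COL3A1, 0.09 for DCN and -0.14 for THY1. The 4 brain markers with a symbol, of 11, summed to 0.23, 0.78, 0.44 and 0.18 untreated and 1.20, 0.22, 0.47 and 0.79 with PHE. GFAP and S100B were tested, and AQP4 was above background on no array. Of 8 red cell markers, HBA1 and HBB had a symbol and summed to 5.78, 2.60, 9.37 and 5.76 untreated and 2.62, 2.98, 4.16 and 3.12 with PHE. HBA1 alone was tested, and HBB was above background on no array. The 4 fat markers with a symbol, of 6, summed to 0.26, 0.15, 1.53 and 0.26 untreated and 0.33, 0.11, 0.46 and 0.27 with PHE. FABP4 and PLIN1 were tested. Among untreated arrays, replicate 3 was highest for the leukocyte, endothelial, fibroblast, red cell and fat sums, and lowest for the smooth muscle marker CNN1. What these differences contribute to the changes above was not tested.

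Genes outside the lists rose as well. SLCO4A1, an organic anion transporter, stood well above background on none of the untreated arrays and read 0.15, -4.64, -1.30 and 0.13 with PHE. It was 26.3-fold higher by the bound, and its log2 change was 3.29 with normexp background correction. It was lowest on PHE replicate 2, by more than 3 log2 units. The limma adjusted p of 0.00697, which compares PHE signal with background, became 0.0631 with slide as a block. C10orf10, a target of stress and fasting signals, rose by 3.38, from 2.03, 2.43, 1.19 and 1.85 to 5.55, 5.64, 4.43 and 5.38. CKS2, a partner of cell cycle kinases, went from -3.10, -3.25, -2.93 and -3.38 to 1.52, -1.07, 0.47 and 0.17, a change of 3.44. The following were named after their values were seen. CEBPD (3.76) and CEBPB (3.05) are transcription factors of the acute phase response, HES1 (2.95) and NRARP (3.07) are targets of Notch signals, and BAMBI (2.94) is a decoy receptor of the TGF-beta family. GCH1 (2.88), the first enzyme in making the cofactor of nitric oxide synthase, read 0.07, -2.71, -0.36 and -0.70 with PHE and between -4.11 and -3.47 untreated. NRARP was well above background on 2 untreated arrays, and its log2 change was 1.52 with normexp background correction. The calls of CEBPB and NRARP were lost without untreated replicate 1, 2 or 4, or without PHE replicate 1, 3 or 4 (limma adjusted p up to 0.125). GCH1 kept its call only without PHE replicate 2 (otherwise up to 0.109) and lost it with slide and with replicate number as a block.

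The genes that fell were fewer and changed less. Among the 24 lower genes 18 carry a symbol, and 2, ENO3 and LRRC42, were well above background on no PHE-treated array. Among genes with a symbol, the largest fall by the fitted values was that of SUGP2, a protein with a splicing factor domain. It went from -2.74, -2.31, -1.60 and -1.64 to -5.42, -4.11, -4.96 and -3.73, or down by 2.48 on the log2 scale (limma adjusted p = 0.0187). C12orf76 fell by 2.29 by the fitted values, with 2 PHE-treated arrays well above background, and PHE replicates 1 and 3 (-5.73 and -5.79) were lower than replicate 2 (-4.89) and replicate 4, the highest. CBWD1 had treated values close together (SD 0.10) and fell from -1.80, -1.98, -2.47 and -1.87 to -3.66, -3.86, -3.63 and -3.74 (log2 change -1.69, limma adjusted p = 0.00164). DGUOK, a mitochondrial kinase of nucleosides, was well above background on 3 PHE-treated arrays and fell by 1.53 on the log2 scale (limma adjusted p = 0.00306).

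The zinc finger gene HKR1 fell by 1.63, RP9, known from a form of retinitis pigmentosa, by 1.60, and LRRC42 2.71-fold by the bound. The calls of SUGP2, C12orf76, HKR1, RP9 and LRRC42 were lost with slide as a block (limma adjusted p = 0.109, 0.0651, 0.131, 0.110 and 0.143), and those of C12orf76, RP9 and LRRC42 with replicate number as a block. Without 1 array, SUGP2 lost its call without untreated replicate 3 or 4, or without PHE replicate 3, C12orf76 without untreated replicate 1, 2 or 4, or without PHE replicate 1 or 3, and HKR1 without untreated replicate 2, 3 or 4, or without PHE replicate 1 or 3. RP9 lost it without any untreated replicate or PHE replicate 1 or 3, and LRRC42 without untreated replicate 2, 3 or 4, or without PHE replicate 1, 3 or 4, with limma adjusted p up to 0.105 over these 5 genes. With normexp background correction DGUOK, C12orf76, RP9 and LRRC42 were not past the threshold, at log2 changes of -0.49, -0.78, -0.87 and -0.21. HKR1, SUGP2 and CBWD1 were past it, at -1.32, -1.29 and -1.03, so that HKR1 then fell more than SUGP2. HKR1 did not pass with the mean of a gene's probes (limma adjusted p = 0.0698). The number of lower genes was 12, 15, 36 and 6 without untreated replicates 1 to 4 and 13, 87, 7 and 14 without PHE replicates 1 to 4.

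The 4 treated arteries did not respond alike. Among the 124 higher genes, PHE replicate 2 was the lowest treated array in 88 and the highest in 13, and PHE replicate 1 was the highest in 79. The median difference from the untreated mean over these genes was 3.76, 2.23, 3.26 and 3.31 in PHE replicates 1 to 4, or 2.21 in PHE replicate 2 with IL6, DUSP5 and SLCO4A1 at their bounds. All 4 treated arrays lay beyond every untreated array in each of the genes. The median SD of the higher genes was 0.42 among untreated and 0.72 among treated arrays, and 0.44 among the treated arrays without PHE replicate 2, against 0.31 and 0.28 over all genes tested. For the 24 lower genes, which were called with all 4 treated arrays in the fit, the medians were close, at -1.36, -1.21, -1.37 and -1.21.

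The shortfall of PHE replicate 2 was uneven across the higher genes. Its rise was 67.3% of the mean log2 rise of the other 3 arteries at the median, under 50% in 25 genes (26 with IL6, DUSP5 and SLCO4A1 at their bounds) and at least 90% in 29. SLCO4A1, DUSP5 and IL6, whose untreated arrays were at background, lay 4.29, 4.20 and 3.71 log2 units lower in PHE replicate 2 than in the mean of the other treated arteries. Among genes with a large shortfall were also ARG2, with a log2 rise of 2.31 in PHE replicate 2 and 5.48 in the others, EPHA2 (2.01 and 5.06), CDKN1A (2.50 and 5.56) and CREM (4.11 and 6.88). The transcription factor genes FOS, EGR1, JUNB, NR4A1 and NFIL3, the mRNA decay genes BTG2 and ZFP36 and the feedback genes SIK1, RGS2 and DUSP1 did not show it. For FOS, EGR1, NFIL3 and DUSP1, and by little for JUNB, PHE replicate 2 was the highest treated array. It was the lowest for the transcription factor genes EGR3, MYC, ATF3, KLF4, BHLHE40, KLF10, SNAI1 and IER5.

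**Figure D3:**
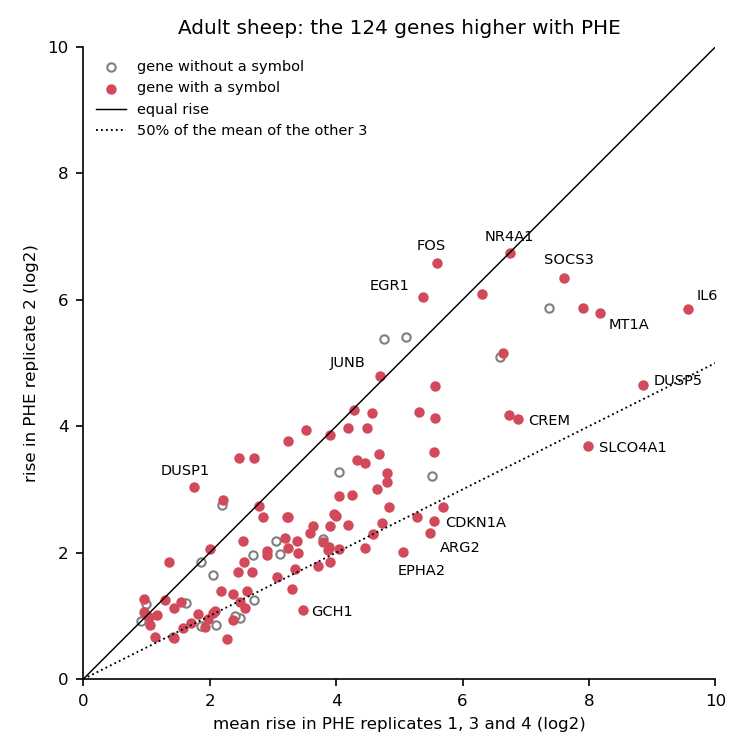
Log2 rise over the untreated mean in PHE replicate 2 (vertical) against the mean rise in PHE replicates 1, 3 and 4 (horizontal) for each of the 124 higher genes. Genes on the solid line rose equally, and 25 genes lie below the dotted line, where the rise in PHE replicate 2 is under 50% of that in the others. The untreated mean of IL6, DUSP5 and SLCO4A1 is at background, so that their distances along both axes are not measured.

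PHE replicate 2 was also lowest against the others when each treated array was left out of the fit that called the genes. With PHE replicate 2 left out, 278 genes were higher and 87 lower. Over these 278 genes the other 3 arteries had a median rise of 2.21 and the artery left out one of 0.74, or 39.1% of the others at the median gene, and it lay beyond every untreated array in 184. When PHE replicate 1, 3 or 4 was left out instead, the artery left out reached 122%, 106% and 101% of the others over 93, 71 and 86 higher genes. Over the 87 lower genes, PHE replicate 2 had a median of -0.34 and the others of -1.12, or 31.1% at the median gene. PHE replicates 1, 3 and 4 reached 93.4%, 93.0% and 50.3% over 13, 7 and 14 lower genes. The sets of genes differ between these 4 fits, and the filter on dim probes used all arrays in each of them. The other arteries include PHE replicate 2 in every fit but its own, so that these percentages are set against unlike means. Of the 63 genes chosen for description by the rule for single genes that did not pass over all arrays, 23 passed without PHE replicate 2. These 63 were chosen with earlier results of these data known, so that this share says nothing of genes at large. Over all 9239 genes tested, 365 passed without PHE replicate 2, and 141 of these were among the 148 that passed over all arrays.

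By gene list, the place of PHE replicate 2 among the treated arteries varied. For early transcription factor genes the median differences from the untreated mean were 4.81, 3.53, 4.40 and 3.92 in PHE replicates 1 to 4. They were 3.96, 2.06, 2.98 and 3.13 for cyclic AMP and calcium feedback genes, and 1.53, 1.01, 1.17 and 0.67 for mRNA decay genes, where PHE replicate 4 was lowest. In the cytokine and chemokine genes they were 3.14, 0.53, 2.40 and 5.93, with PHE replicate 4 highest. PHE replicate 2 was near the untreated level in the NF-kB pathway (1.67, 0.22, 1.20 and 1.20), in heat shock genes (1.31, 0.15, 1.19 and 1.53) and in energy metabolism genes (1.36, 0.10, 0.85 and 0.96). Over all genes tested these medians lay between -0.07 and -0.01. Whether the lists differ from each other in this respect was not tested.

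**Figure D4:**
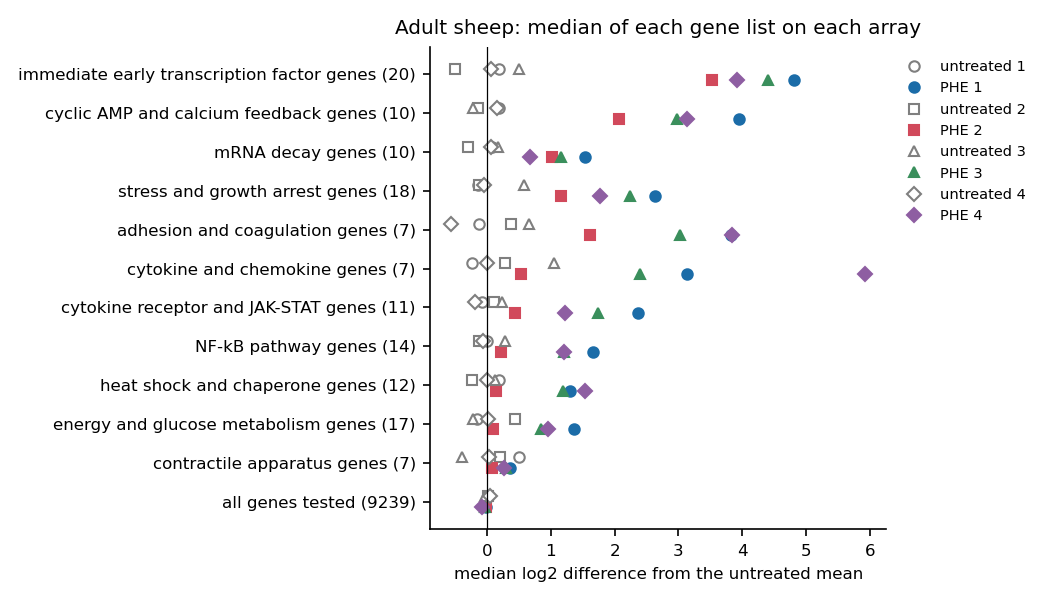
Median log2 difference from the untreated mean of each gene list on each adult array (an untreated array is set against the mean of the other 3), with open symbols for untreated and filled symbols for PHE-treated arrays. PHE replicate 2 lies at 3.53 for early transcription factor genes and between 0.10 and 0.22 for NF-kB, heat shock and energy metabolism genes.

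Genes chosen on other animals showed the same order of arteries. In the premature fetus 2874 of 9752 genes (29.5%) and in the newborn lamb 1796 of 9408 (19.1%) were altered with PHE on the arrays of that age alone, against 265 of 9537 (2.78%) in the near-term fetus. Genes higher in both the premature fetus and the newborn lamb numbered 753, and on adult PHE replicates 1 to 4 their median log2 difference from the untreated adult mean was 1.13, 0.19, 0.71 and 0.94. On the untreated adult arrays, each against the other 3, it was 0.02, -0.08, 0.13 and -0.06. In PHE replicate 2, 65.3% of the 753 genes lay above the untreated mean, and in the other treated arteries 93.5%, 89.6% and 93.2%. On untreated replicates 1 to 4, each against the other 3, this share was 51.3%, 42.7%, 57.1% and 45.2%. Of the 639 that could be tested in the adult sheep, 95 passed the threshold there.

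Genes lower in both of those ages numbered 645. Their medians were -0.53, -0.20, -0.40 and -0.46 on adult PHE replicates 1 to 4, and between -0.18 and 0.12 on the untreated arrays. The share below the untreated mean was 88.4%, 73.2%, 87.4% and 89.1% on PHE replicates 1 to 4. On untreated replicates 1 to 4 it was 50.9%, 36.0%, 63.7% and 35.0%. Of the 607 tested in the adult sheep, 13 passed. The adult arteries thus moved in the direction of the younger ages over most of these genes, while few genes passed the threshold singly. PHE replicate 2 moved least, and it lay close to untreated replicate 3 in both sets of genes.

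Whether a gene responded differently in the adult sheep and the newborn lamb was tested as an interaction in limma. Of 9998 genes tested, 15 passed (0.15%), 7 with the adult log2 change above the newborn one and 8 with it below (0.08%), and 11 of the 15 carry a symbol. At an unadjusted p under 0.05 there were 973. EGR1 read -2.18, -2.86, -1.56 and -0.92 in untreated and -0.57, -0.24, 0.33 and 0.03 in PHE-treated newborn arteries, so that its log2 change was 1.77 there and 5.55 in the adult sheep. The difference was 3.78 (limma adjusted p = 0.0240). ZFP36 changed by 1.77 in the newborn lamb and by 3.90 in the adult sheep, a difference of 2.13 (limma adjusted p = 0.0442). This call of ZFP36 held in 6 of 23 alternatives and was lost with median scaling (limma adjusted p = 0.0630), with slide as a block (0.0743) and in 13 of the 16 fits without 1 array. Of the other calls described, that of CKS2 held in 15 alternatives, EGR1 in 14, C10orf10, CBWD1, ENO3 and PELI1 in 12 each, USP19 in 10 and CSF2 in 7. C10orf10 had a newborn log2 change of 0.50, against 3.38 in the adult sheep (difference 2.88), but it did not pass with slide as a block (limma adjusted p = 0.0532) or with 1 model over 32 arrays (0.0542).

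CKS2 lay on the newborn arrays between 2.44 and 3.24 untreated and between 2.52 and 2.76 with PHE, so that its newborn log2 change was -0.07 against 3.44 in the adult sheep (difference 3.51, limma adjusted p = 0.0240). In the other direction, CBWD1 fell in the adult sheep and had a newborn log2 change of -0.27 (difference -1.42), a call lost with median scaling (limma adjusted p = 0.0630) and with 1 model over 32 arrays (0.883). ENO3 passed as well, but it was well above background on none of the adult PHE-treated and none of the newborn untreated arrays, so that the size of its difference is not measured. USP19 and CSF2 rose in the newborn lamb, where no untreated array was well above background, and were too dim to test in the adult sheep, so that no size is given for them either. USP19 did not pass with slide as a block (limma adjusted p = 0.0531) and CSF2 not with 1 model over 32 arrays (0.273). PELI1, an enzyme of Toll-like receptor signals, rose by 1.49 in the newborn lamb and had an adult log2 change of 0.16 (difference -1.33, limma adjusted p = 0.0334). USP19, CSF2 and PELI1 were named after their values were seen. Adult and newborn arrays were scanned on different days, and the effects of age and of scan day on these differences cannot be told apart. The 15 calls were lost with replicate number as a block within each age and in 6 of the 16 fits without 1 array, those without newborn untreated replicate 1 or 3, newborn PHE replicate 1, 3 or 4 or adult untreated replicate 1, in which 792 to 971 genes had an unadjusted limma p under 0.05. A single gene passed without adult PHE replicate 2 or 3, 5 without newborn untreated replicate 4, 9 without adult untreated replicate 4, 29 without adult PHE replicate 1 and 45 without adult PHE replicate 4.

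**Figure D5:**
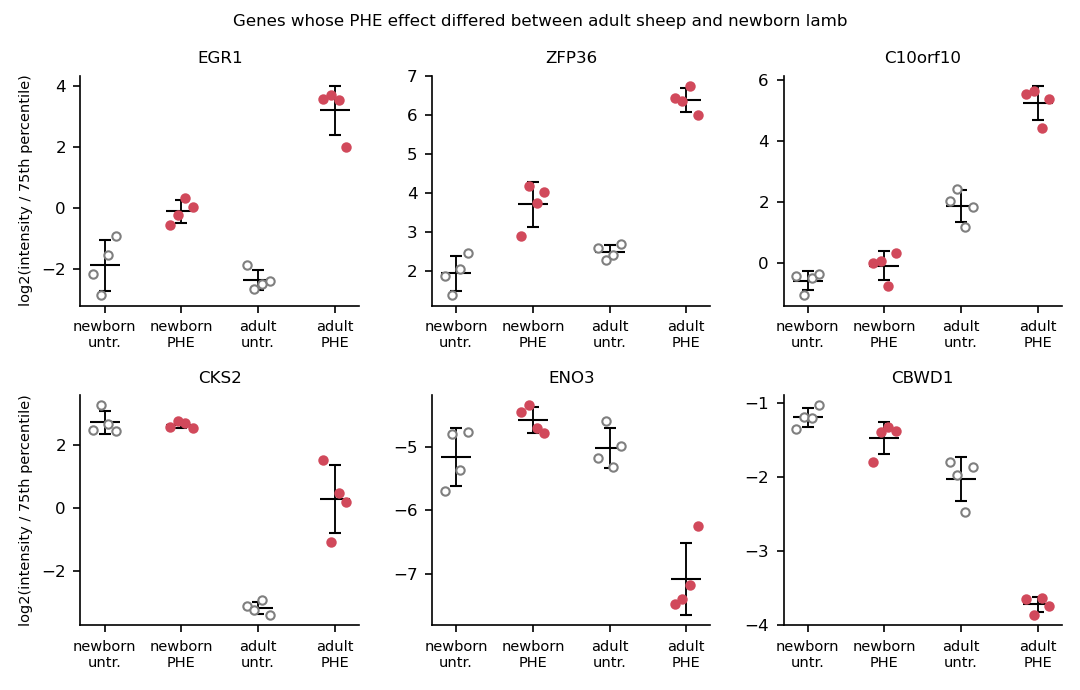
Log2 intensity relative to the array's 75th percentile on each newborn and adult array, untreated (open) and PHE-treated (filled), for 6 named genes whose PHE effect differed between the ages in limma's interaction test. Horizontal bars are means and whiskers 1 SD of 4 arrays, and EGR1, ZFP36, C10orf10 and CKS2 changed more in the adult sheep, while ENO3 and CBWD1 were lower with PHE in the adult sheep. ENO3 was well above background on none of the adult PHE-treated and none of the newborn untreated arrays and could not be tested in the newborn lamb.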

How the data were processed

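Arteries of 8 groups were measured on 32 arrays with 1 colour, 4 per group, and the results rest on the 8 adult arrays, with other ages for comparison. Per the file headers, the deposited intensity values come from scans that the authors read with Feature Extraction 9.5.3.1 of Agilent. That software subtracted background and removed trends within each array, and nothing was scaled between arrays. Here the values were put on the log2 scale relative to their array's 75th percentile over non-control probes. Of 15008 probes, 9580 stood well above background on every array of either adult group, and the brightest tested probe stood for each of 9239 genes. The 2 groups were compared with limma 3.58.1 in R 4.3.3, with p-values adjusted over all genes tested by the method of Benjamini and Hochberg, and a call needed an adjusted p under 0.05 and a change of 1.5-fold. The same model gave the interaction with the newborn lamb and the genes called at the other ages. Tables were made in Python 3.11.15 with pandas 2.3.3, numpy 2.4.6 and scipy 1.17.1, and figures with matplotlib 3.10.9. The fits were tested on simulated data.

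Gene symbols came from the reference annotation (520 probes), from the array file (626) and from the supplementary table of the study (1767), whose group means were matched to the probes within 0.01%. Of the genes in the tables of the near-term fetus, newborn lamb and adult sheep, 1102 of 1106, 1014 of 1016 and 437 of 438 matched 1 probe, against 0, 1 and 0 with shifted tables. The table of the premature fetus was not used, since its values did not match exactly, and 12095 probes have no symbol. Names from the reference and the table were equal for 76 of 86 probes, and names from the array file and the table for 159 of 206.

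Genes described singly were, by size of the fitted change, the top 12 of the called rises and the top 8 of the called falls, from each list up to 6 called members and up to 3 tested members that were not called, genes that the study names for the adult sheep, and the 5 symbols with the smallest adjusted p in the interaction. A gene outside this rule is said to be named after its values were seen. STAT3, named by the study, has no probe with its symbol. Members and lists were chosen with earlier results of these data known. Alternatives changed the scaling, the background correction, the filter, the model, the test and the threshold, and left out each array in turn. The comparison within the slide that holds both groups, list counts without PHE replicate 2, the alternatives for genes called at the other ages and 3 of those for the interaction were chosen after seeing the data.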

Additional observations from a re-analysis of the deposited data

Results flagged for a closer look

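An array that stood far from the other 3 of its group was found in 16 of 280 groups examined, where chance gives about 1 in 20. PHE replicate 2 was that array in 6 of them and untreated replicate 3 in 5.

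On PHE replicate 2, CDKN1A read 1.03 (others 3.99 to 4.16), COL1A2 -2.65 (-1.30 to -1.16), CRYAB 6.32 (7.30 to 7.39), DUSP5 -2.18 (1.69 to 2.45), MT2A 5.07 (6.34 to 6.60) and RCAN1 4.14 (6.51 to 6.54). It was the low array in each of these 6 genes. On PHE replicate 4, EGR1 read 2.00 (others 3.53 to 3.70), JUN 1.51 (2.48 to 2.59) and TOB1 0.83 (1.59 to 1.73), again the low values of their groups.

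On untreated replicate 3, ITGB2 read -3.32 (others -5.52 to -5.23), MYC -0.24 (-1.44 to -1.32) and PDE4B -5.73 (-8.18 to -7.77), each high, and JAK1 3.97 (4.47 to 4.55), which was low. On untreated replicate 2 the astrocyte gene GFAP read -4.14 (others -5.32 to -5.20). The 75th percentile intensity was 1730 on untreated replicate 3 (others 1031 to 1100), and 69.8% of probes were well above background on PHE replicate 1 (others 63.8% to 64.5%).

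The effect of PHE differed between the adult sheep and the newborn lamb, by limma's interaction test, in 9 genes described above. The adult log2 change minus the newborn one was 3.78 for EGR1, 3.51 for CKS2, 2.88 for C10orf10, 2.13 for ZFP36, -1.33 for PELI1, -1.42 for CBWD1, -2.63 for ENO3, -3.53 for CSF2 and -4.37 for USP19. Over all genes tested, the adult change was above the newborn one in 7 of the 15 that passed and below it in 8. For ENO3, CSF2 and USP19 no newborn untreated array was well above background, nor was any adult PHE-treated array for ENO3 and CSF2 or adult untreated array for CSF2. The size of these 3 differences is thus not measured. USP19, CSF2 and PELI1 were named after their values were seen. All 9 calls were lost with replicate number as a block within each age, those of C10orf10, ZFP36 and USP19 with slide as a block, and those of C10orf10, CBWD1, ENO3 and CSF2 with 1 model over 32 arrays.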

How the results depend on the processing

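Under every alternative that tested both directions, more genes were higher than lower with PHE in the adult sheep. The counts of 148 altered, 124 higher and 24 lower genes became 352, 259 and 93 with 1 model over 32 arrays, 378, 252 and 126 with array weights, 87, 82 and 5 with slide as a block, and 97, 92 and 5 within the slide that holds both groups, an alternative chosen after seeing the data. With replicate number as a block they were 117, 103 and 14, and without a filter on dim probes 99, 90 and 9. The t-test of the methods gave 595, 351 and 244 at an unadjusted p and 5, 5 and 0 after adjustment, and limma at an unadjusted p gave 882, 492 and 390. Leaving out 1 array gave 78 to 365 altered, 71 to 278 higher and 6 to 87 lower genes. Counts of altered genes stayed between 138 and 161 with median scaling, quantile normalization, normexp background correction, only probes well above background on all 8 arrays, a floor, no fold threshold, the mean of a gene's probes and the deposited matrix.

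The 15 genes whose PHE effect differed between adult sheep and newborn lamb became 9 with 1 model over 32 arrays, 62 with quantile normalization and 0 with a replicate block within each age (1239 at an unadjusted limma p under 0.05). They became 35 with adult arrays of 1 slide and 8 with probes well above background on all 16 arrays, both chosen after seeing the data. Leaving out 1 array gave 0 to 45.

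For genes higher at the other ages, a change of 3-fold or more at both ages gave adult medians of 2.83, 0.57, 1.85 and 2.59 on PHE replicates 1 to 4, and for lower genes -1.12, -0.45, -0.80 and -0.89, with -0.67 on PHE replicate 1 under median scaling, and all alternatives for these genes were chosen after seeing the data. The median log2 change of all genes was -0.05, and -0.12, -0.08 and 0.01 with median scaling, quantile normalization and normexp background correction.

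Same-numbered untreated and PHE-treated arrays correlated at r between -0.11 and 0.03, and 0 of 4 untreated arrays correlated best with their own number. The causes of these differences were not tested. A fall to background can only be bounded roughly, and genes without a symbol limit what the lists can show.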

Other observations

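Genes too dim to test in the adult sheep included several that were brighter on some treated arrays. CISH, an inhibitor of cytokine receptor signals, was well above background on none of the untreated arrays and on PHE replicates 1, 3 and 4, at -3.15, -3.37 and -2.47, against -6.73 on PHE replicate 2. The glycolytic gene HK2 read -2.70, -6.08, -3.70 and -2.12 on PHE replicates 1 to 4 and was well above background on 3 of them and on none of the untreated arrays. PHE replicate 2 was the low treated array for both.

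HSPA4, a relative of HSP70, read -1.43, -6.51, -3.82 and 2.90 with PHE, and PLAUR, the receptor of urokinase, -4.74, -7.42, -4.15 and -0.85. Each was well above background on 1 untreated array and on 3 PHE-treated arrays, with PHE replicate 4 highest. IL10 was well above background on 2 PHE-treated arrays and none of the untreated ones, CXCL5 on 2 PHE-treated arrays and 1 untreated array, and CSF3 on 1 PHE-treated array alone. None of these genes was tested.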
